A study of Caenorhabditis elegans with 36 samples.

Results

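The genes described here are the protein-coding genes on the X chromosome of Caenorhabditis elegans that have no gene name besides the sequence name of the clone they lie on (F41G4.7, AC8.10 and the like). They were taken from the WBcel235 annotation by biotype, chromosome and name, without the use of any measured value, and 1324 of the 1387 such genes matched the 45904 gene names in the count files. The other 63 were not analysed here. Of the 1324 members, 52 have a symbol in RefSeq and for 328 the RefSeq product named no function (uncharacterized protein, ovule protein or none). The comparison set is the 7453 autosomal protein-coding genes that likewise have no name.

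Whole Day 1 adults of 2 genotypes were grown for a single generation at 2 temperatures, and both mRNA and small RNA were sequenced with 3 biological replicates in each group, 12 libraries for each assay. The groups were mut-16(pk710) mutants raised at 25°C, the same mutants raised at 20°C, N2 (wild-type) animals raised at 25°C and N2 animals raised at 20°C. Harvest was about 68 h into culture for animals kept at 20°C but about 48 h for those kept at 25°C, so temperature and time in culture cannot be told apart. Each genotype is 1 strain and each library pools whole animals, so germline and soma are mixed.

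Hermaphrodites carry a pair of X chromosomes. In their germ cells the X is kept largely silent by the MES histone methyltransferases, while in the soma the dosage compensation complex lowers transcription of both copies, and few genes needed throughout the germline lie on the X. MUT-16 is the scaffold of Mutator foci, perinuclear sites in germ cells where RNA-dependent RNA polymerases copy target mRNAs into secondary siRNAs that silence genes and transposons.

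Total reads assigned to genes ran between 15432009 and 34195602 in mRNA-seq and between 4760502 and 19060841 in small RNA-seq. Levels are given as RPM, reads per 1000000 of that total, and between genes as RPM per kb of the longest annotated transcript. The mut-16 transcript itself had 49.4, 40.6 and 42.3 RPM in mut-16 at 25°C and 64.3, 51.7 and 40.8 RPM in mut-16 at 20°C, against 127, 109 and 105 RPM in wild-type at 25°C and 127, 117 and 119 RPM in wild-type at 20°C, below wild-type in every mutant library. Libraries that stood apart from the other replicates of their group were replicate 1 of mut-16 at 25°C and replicate 3 of mut-16 at 20°C in mRNA-seq, and replicate 3 of wild-type at 25°C, the shallowest, in small RNA-seq. Replicates 2 and 3 of mut-16 at 25°C differed in mRNA-seq by little more than sampling noise, with a chi-square of 1.63 per gene.

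The sequences of 4 members are printed here because they are short enough to be seen whole and carry extremes of the data. F59C12.4 (X:16602473-16602622, minus strand, 1 exon) had the most small RNAs of all members in wild-type, and R09H3.2 (X:1664855-1665025, minus strand, 2 exons, shown spliced) had no mRNA read in wild-type at 20°C. F23A7.4 (X:16212606-16212812) and F23A7.8 (X:16213373-16213576), both on the plus strand, had the highest mRNA levels per kb in wild-type at 20°C. Capitals mark the start and stop codons in F59C12.4 and R09H3.2, and the bases that differ between the pair in F23A7.4 and F23A7.8.
F59C12.4: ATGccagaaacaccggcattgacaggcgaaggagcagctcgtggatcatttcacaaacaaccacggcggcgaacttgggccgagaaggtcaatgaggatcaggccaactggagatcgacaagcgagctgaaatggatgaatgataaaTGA
R09H3.2: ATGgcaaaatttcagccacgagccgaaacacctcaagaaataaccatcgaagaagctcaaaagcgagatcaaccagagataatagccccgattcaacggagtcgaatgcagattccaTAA
F23A7.4: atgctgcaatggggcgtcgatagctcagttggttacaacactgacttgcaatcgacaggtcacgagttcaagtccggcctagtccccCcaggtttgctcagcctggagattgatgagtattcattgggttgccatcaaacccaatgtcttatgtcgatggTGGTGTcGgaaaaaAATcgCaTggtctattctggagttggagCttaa
F23A7.8: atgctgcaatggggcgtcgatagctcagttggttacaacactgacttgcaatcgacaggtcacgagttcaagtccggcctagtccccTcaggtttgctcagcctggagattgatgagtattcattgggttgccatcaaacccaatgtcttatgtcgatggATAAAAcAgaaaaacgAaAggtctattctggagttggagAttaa

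F23A7.4 and F23A7.8 share 193 of 204 aligned bases, or 94.6%, so part of their reads could be assigned to either gene. Their sequences are those of the WBcel235 reference read over the annotated exons.

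The members were short genes and about as long as their autosomal counterparts. The median longest transcript was 1011.5 bases in members, against 979 bases in unnamed autosomal genes, and the median coding length was 714 against 762 bases. Named X-linked genes had a median transcript of 1633 bases. Members made up between 39.6% and 60.7% of the coding genes in each of the 18 one-megabase stretches of the X, so they were spread along its whole length. In promoters of 300 bases (250 before and 50 after the annotated start), GC content averaged 35.9% in members and 34.4% in unnamed autosomal genes. The letters TGATAA, the core that GATA factors bind, occurred on either strand in 28.2% of member promoters, 31.2% of unnamed autosomal promoters and 30.1% of all coding promoters. TATAAA occurred in 36.3%, 39.3% and 38%, and GAA and TTC spaced by 2 bases, the letters of a heat shock element, in 14.2%, 20% and 18.5% of the same sets. A match describes the letters in the window only.

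Many members were hardly detected as mRNA. In mRNA-seq 563 members averaged at least 1 RPM in all 4 groups, 582 were under 1 RPM in all 4 groups, and 59 had no read in any library. C39D10.7 was the member with the most mRNA in wild-type at 20°C, with 5% of the reads of all members, and the 10 most abundant members held 28.1%.

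The summed mRNA of the members was highest in mut-16 at 25°C. It ran between 18574 and 19051 RPM in mut-16 at 25°C, between 13059 and 14839 RPM in mut-16 at 20°C, between 14551 and 15347 RPM in wild-type at 25°C and between 13345 and 16039 RPM in wild-type at 20°C. In RPM of library totals, the libraries of mut-16 at 25°C did not overlap with those of any other group, while the other groups overlapped one another. With TMM-scaled library sizes the sums were 16481 RPM in mut-16 at 25°C and 15272 RPM in mut-16 at 20°C, so the size of the gap depended on the scaling. The median member had 1.46 ± 0.0391 RPM per kb in mutants at 25°C, 0.71 ± 0.0474 RPM per kb in mutants at 20°C, 0.751 ± 0.0547 RPM per kb in wild-type animals at 25°C and 0.577 ± 0.0516 RPM per kb in those at 20°C (SD, n = 3 each). In unnamed autosomal genes the median was 2.06 ± 0.0613, 0.844 ± 0.0353, 0.752 ± 0.0541 and 0.45 ± 0.0406 RPM per kb in the same order of groups. Named genes also had their highest medians in mut-16 at 25°C, at 4.85 RPM per kb on the X and 7.28 RPM per kb on autosomes. In mut-16 at 20°C these were 2.69 and 4.17 RPM per kb. Between 720 and 732 members reached 1 RPM in mut-16 at 25°C, against 602 to 613 in mut-16 at 20°C, 614 to 626 in wild-type at 25°C and 583 to 604 in wild-type at 20°C.

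Markers of several tissues moved between the same groups. The summed level of 18 germline genes (pgl-1, glh-1, gld-1 and others) was 4353 to 4400 RPM in mut-16 at 25°C, against 5266 to 5593 RPM in mut-16 at 20°C, 5787 to 5820 RPM in wild-type at 25°C and 5158 to 5773 RPM in wild-type at 20°C. That of 12 oocyte and eggshell genes was 6610 to 7226 RPM in mut-16 at 25°C and 8946 to 10430 RPM over the other 9 libraries. That of 11 neuronal genes was 323 to 329 RPM in mut-16 at 25°C and 193 to 236 RPM over the other groups. For 10 muscle genes it was 3594 to 4255 RPM and 1720 to 2761 RPM. For 77 sperm genes it was 930 to 993 RPM and 197 to 804 RPM, and for 160 hypodermis and cuticle genes 37582 to 40451 RPM and 7726 to 20551 RPM. For 10 intestinal genes the ranges overlapped, at 31689 to 51144 RPM and 44599 to 61207 RPM. Of these 10, 6 fell and 3 rose with temperature in mut-16 (edgeR). Of 16 regulators of the X (the dosage compensation complex, the MES proteins and mrg-1), 11 fell in mut-16 at 25°C against mut-16 at 20°C, none rose and the median log2 fold change was -0.43, while in wild-type none of the 16 passed the test between 25°C and 20°C by edgeR. In bulk samples fewer cells of a type and less RNA per cell cannot be told apart, and the part of these shifts in the results of the members was not tested.

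**Figure D1:**
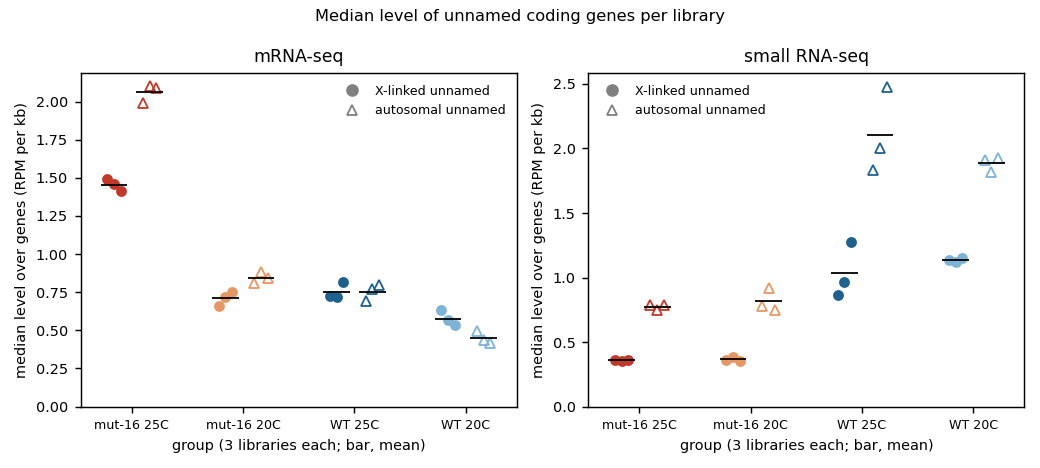
Median level of the 1324 X-linked unnamed genes (filled circles) and the 7453 autosomal unnamed genes (open triangles) in each library, in RPM per kb, for mRNA-seq (left) and small RNA-seq (right), with the group mean as a bar. In mRNA-seq both classes were highest in mut-16 at 25°C, at means of 1.46 and 2.06 RPM per kb, and in small RNA-seq both were lower in the mut-16 groups than in the wild-type groups.

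The first comparison asked which members responded to temperature in mut-16 mutants. Of the 843 members that passed the filter on low counts in mRNA-seq, 441 rose and 96 fell in mut-16 at 25°C against mut-16 at 20°C (edgeR, quasi-likelihood test, adjusted p under 0.05 by Benjamini-Hochberg over 14623 genes). The same test called 72.6% of all genes, 40.2% higher and 32.3% lower, against 52.3% of the tested members higher and 11.4% lower. Of 5047 tested unnamed autosomal genes, 2412 rose and 1316 fell. The median log2 fold change was 0.44 in members, 0.41 in unnamed autosomal genes, 0.35 in X-linked named genes and 0.15 in all genes. The members had a smaller share of lower calls than unnamed autosomal genes. So did X-linked named genes, with 49.9% higher and 9.12% lower. How the unnamed classes compared depended on the filter. With no filter the medians were 0.51 in members, 0.57 in unnamed autosomal genes and 0.34 in all genes. With at least 10 counts in every library they were 0.51 in the 622 members left, 0.13 in unnamed autosomal genes and 0.07 in all genes. Scaling by library totals moved the median of all genes by 0.31 to 0.46 and gave 592 members higher and 41 lower, and the median of the members lay 0.29 above that of all genes under either scaling. The other 481 members did not pass the filter, so these counts do not describe all members.

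By the rule for naming, which asks for at least 5 RPM, the members that rose most with temperature in mut-16 were the neighbours R09H3.2 and R09H3.3 on the left arm of the X, and T22B7.3. R09H3.3 (X:1666929-1668848, minus strand) encodes an uncharacterized protein, and the stretch of its protein that matches best elsewhere is in C38D9.2 on chromosome V, with 53.6% identity over 110 residues. It had 55.8, 66.5 and 64.8 RPM in mut-16 at 25°C and 4.45, 3.46 and 2.46 RPM in mut-16 at 20°C, against 0.415, 0.211 and 0.411 RPM in wild-type at 25°C and 0.2, 0.269 and 0.165 RPM in wild-type at 20°C. The libraries of mut-16 at 25°C were far above all others and those of mut-16 at 20°C were above both wild-type groups. Its log2 fold change with temperature in mut-16 was 3.87 ± 0.52 (edgeR adjusted p = 1.45e-10), and in wild-type it was 0.68 ± 0.53 (adjusted p = 0.333). Here and below, ± after a log2 fold change is an approximate SE worked out from the p-value.

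R09H3.2, whose 120 spliced bases are printed above and which RefSeq calls an inner membrane protein, had 7.91, 9.79 and 9.91 RPM in mut-16 at 25°C and 0.239, 0.187 and 0.231 RPM in mut-16 at 20°C. In wild-type at 25°C it had 0, 0.0351 and 0.0374 RPM, and no read in any library of wild-type at 20°C. Its reads were thus almost all in mut-16 at 25°C, where it was 5.06 ± 0.73 higher on the log2 scale than in mut-16 at 20°C (edgeR adjusted p = 2.58e-09). Against wild-type at 25°C it was at least 77.6-fold higher, with 3 counts per library as the floor in wild-type.

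T22B7.3 (X:5647373-5650218, plus strand), a predicted amidinotransferase, had 5.57, 5.98 and 5.56 RPM in mut-16 at 25°C and 0.526, 0.421 and 0.616 RPM in mut-16 at 20°C. In wild-type it had 2.68, 3.51 and 3.78 RPM at 25°C and 0.351, 0.323 and 0.289 RPM at 20°C. Every library at 25°C was above every library at 20°C in both genotypes, with log2 fold changes of 3.11 ± 0.47 in mut-16 (edgeR adjusted p = 1.08e-08) and 3.35 ± 0.52 in wild-type (adjusted p = 4e-08). It overlaps T22B7.5 on the opposite strand.

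Among the members that fell with temperature in mut-16 were C09B8.4, F47E1.4 and F23A7.4. C09B8.4 (X:6018442-6019936, minus strand), which RefSeq calls transmembrane protein 53, had 5.83, 5.16 and 5.18 RPM in mut-16 at 25°C and 21.8, 20.8 and 19.1 RPM in mut-16 at 20°C, against 5.86, 6.53 and 5.68 RPM in wild-type at 25°C and 23.1, 32 and 20.4 RPM in wild-type at 20°C. Temperature separated its libraries in both genotypes, by log2 fold changes of -2.26 ± 0.35 in mut-16 and -2.08 ± 0.33 in wild-type (edgeR adjusted p = 2.79e-08 and 7.44e-08). F23A7.4 had 210, 180 and 190 RPM in mut-16 at 25°C and 312, 343 and 521 RPM in mut-16 at 20°C, against 342, 298 and 357 RPM in wild-type at 25°C and 729, 654 and 525 RPM in wild-type at 20°C. It fell with temperature in both genotypes, and its pair F23A7.8 did as well.

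F47E1.4 (X:9062823-9066662, plus strand), a predicted organic anion transporter, also fell with temperature in mut-16. It had 2.53, 2.58 and 2.95 RPM in mut-16 at 25°C and 4.69, 6.68 and 5.97 RPM in mut-16 at 20°C, against 10, 10.3 and 10.1 RPM in wild-type at 25°C and 13, 6.25 and 8.22 RPM in wild-type at 20°C. The libraries of mut-16 at 25°C were below all others. The temperature response in mut-16 was lower than that in wild-type by a log2 of -1.54 ± 0.39 (edgeR adjusted p = 0.00171).

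In wild-type animals 180 members rose and 90 fell at 25°C against 20°C, or 21.4% and 10.7% of those tested, against 22.6% and 9.78% of all genes (32.4% in either direction). The median log2 fold change was 0.13 in members, 0.17 in unnamed autosomal genes and 0.09 in all genes. The members' shares were thus close to the background. DESeq2 gave 141 higher and 125 lower, and a fit without a filter on low counts 141 and 118. Of the 843 tested members, 164 rose with temperature in both genotypes, 46 fell in both and 11 were called in opposite directions, or 19.5%, 5.46% and 1.3%, and the 2 comparisons share no library. The shares were 18.9%, 6.52% and 1.46% of all genes tested and 23.6%, 5.86% and 1.6% of unnamed autosomal genes, so the members were near the background here too.

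F54E4.2 (X:14625452-14628916, minus strand), a predicted G-protein coupled receptor, changed most in wild-type by the same rule. It had 0.194, 0.157 and 0.175 RPM in mut-16 at 25°C and 3.4, 3.32 and 3.43 RPM in mut-16 at 20°C, against 0.0461, 0.246 and 0.0374 RPM in wild-type at 25°C and 5.86, 5.87 and 5.95 RPM in wild-type at 20°C. The libraries at 25°C were close to 0 and those at 20°C varied little, for log2 fold changes of -4.57 ± 0.69 in mut-16 and -5.62 ± 0.80 in wild-type (edgeR adjusted p = 9.27e-09 and 1.85e-09). F48E3.2, a predicted transporter of the major facilitator superfamily, fell in wild-type by 1.23 on the log2 scale (edgeR adjusted p = 5.77e-05), and it overlaps F48E3.1 on the opposite strand.

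H11L12.1 (X:17710285-17711698, minus strand), which RefSeq calls a telomerase-binding protein, lies close to the right end of the X, whose length is 17718942 bases. It had 79.8, 77.9 and 83.7 RPM in mut-16 at 25°C and 19, 15.4 and 15.1 RPM in mut-16 at 20°C, against 63.3, 57.2 and 60.3 RPM in wild-type at 25°C and 5.13, 6.04 and 7.8 RPM in wild-type at 20°C. It was higher at 25°C in every library of both genotypes, with log2 fold changes of 1.97 ± 0.30 in mut-16 and 3.23 ± 0.44 in wild-type (edgeR adjusted p = 1.81e-08 and 3.08e-10). A stretch of 631 bases of its transcript is 95.6% identical to T16G12.3 on chromosome III, so its reads are uncertain, and T16G12.3 had between 33.2 and 63 RPM in mRNA-seq. F53B3.6, which RefSeq calls RNA-binding protein 6, rose with temperature in wild-type by 2.16 ± 0.37 on the log2 scale (edgeR adjusted p = 5.73e-07).

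Members annotated as neuropeptide-like or as small secreted neuronal proteins were mostly higher at 25°C in mut-16. This group was formed after the annotation of the members had been read, with earlier results of these data known. Of its 31 members 21 were tested, and 16 rose and none fell in mut-16 at 25°C against mut-16 at 20°C, with a median log2 fold change of 0.95 (40.2% of all genes rose and 32.3% fell). In wild-type 8 rose, 1, F23D12.7, fell and the others were not called, where 22.6% of all genes rose. Against wild-type, 12 were higher and 1, ZK813.2, was lower in mut-16 at 25°C, and 7 were higher and none lower in mut-16 at 20°C, where 41.1% and 25.9% of all genes were higher. Some of the 16 that rose, such as C07B5.3 and C39D10.2, had low counts and passed the filter through mut-16 at 25°C alone. C07B5.3 had 0.583, 0.755 and 0.819 RPM there and at most 0.246 RPM in the other groups. For such members a rise was nearly the only call possible, so the counts of the group cannot be read as support. The group summed to 657 to 740 RPM in mut-16 at 25°C, against 343 to 441 RPM in mut-16 at 20°C, 463 to 543 RPM in wild-type at 25°C and 346 to 468 RPM in wild-type at 20°C. The summed level of the 11 neuronal genes moved the same way, as given above, and its part in this result was not tested.

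C45B2.1 (X:6086124-6086567, plus strand; spig-20 in RefSeq) was the member of this group with the largest rise in wild-type that met the rule for naming. It had 129, 163 and 162 RPM in mut-16 at 25°C and 36.2, 39 and 47.6 RPM in mut-16 at 20°C, against 26.8, 36.4 and 33.4 RPM in wild-type at 25°C and 9.52, 9.8 and 8.67 RPM in wild-type at 20°C. Mutant libraries at 20°C overlapped with wild-type libraries at 25°C, and the other groups were separate. Its log2 fold changes were 1.57 ± 0.25 with temperature in mut-16, 1.77 ± 0.28 with temperature in wild-type, 2.03 ± 0.30 for mut-16 at 25°C and 2.22 ± 0.33 for mut-16 at 20°C (edgeR adjusted p between 1.66e-09 and 7.78e-08). Its neighbour C45B2.2, named here after its values were seen, encodes a protein with 74.7% identity to that of C45B2.1. C45B2.2 had 9.78, 10.4 and 11.1 RPM in mut-16 at 25°C and 1.68, 1.64 and 1.77 RPM in mut-16 at 20°C, against 0.461, 0.562 and 0.785 RPM in wild-type at 25°C and 0.2, 0.108 and 0.0413 RPM in wild-type at 20°C, so its 4 groups did not overlap.

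Among the other members with high levels per kb, ZK813.7, which is also neuropeptide-like, had 314, 322 and 328 RPM in mut-16 at 25°C and 184, 203 and 233 RPM in mut-16 at 20°C, against 251, 296 and 271 RPM in wild-type at 25°C and 272, 201 and 216 RPM in wild-type at 20°C, and of the comparisons it passed the test only for temperature in mut-16, by 0.32 on the log2 scale (edgeR adjusted p = 0.00963). Y62H9A.5 (stha-3 in RefSeq, a conserved secreted protein) ranged between 255 and 501 RPM, and ZC373.2 between 154 and 297 RPM, with all 4 groups overlapping and no comparison past the threshold. Both have the letters TATAAA within 40 bases before the annotated start, on the strand of the gene, as C45B2.1 does. The 60 bases before each start are printed with TATAAA in capitals, as examples picked for these letters. Of the other members with the highest mRNA per kb, F23A7.4 and F23A7.8 do not have TATAAA in the 200 bases before the start, and ZK813.7 has it 72 bases before. They lie on the X at 6086064-6086123 (plus strand), 10058433-10058492 (minus strand) and 11882901-11882960 (minus strand).
C45B2.1: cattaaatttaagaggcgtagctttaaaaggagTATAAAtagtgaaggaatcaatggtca
ZC373.2: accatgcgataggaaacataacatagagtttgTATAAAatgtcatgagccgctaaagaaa
Y62H9A.5: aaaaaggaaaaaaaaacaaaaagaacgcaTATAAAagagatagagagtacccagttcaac

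TATAAA began between 40 and 20 bases before the start in 4.46% of all members, 4.84% of unnamed autosomal genes, 4.71% of all coding genes and 4 of the 31 neuropeptide-like or secreted neuronal members.

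The next comparisons asked how members differed between mut-16 and wild-type at each temperature. At 25°C, 403 members rose and 95 fell in mut-16 (edgeR), or 47.8% and 11.3% of those tested, against 41.1% and 32.6% of all genes (73.7% in either direction). Of unnamed autosomal genes 2388 rose and 1397 fell. The median log2 fold change was 0.38 in members, 0.37 in unnamed autosomal genes, 0.41 in X-linked named genes and 0.16 in all genes. With at least 10 counts in every library the medians were 0.46 in members, 0.11 in unnamed autosomal genes and 0.06 in all genes. With no filter they were 0.43, 0.52 and 0.32 in the same order. Scaling by library totals gave 525 members higher and 57 lower, and moved the median of all genes to 0.37. At 20°C, 174 members rose and 106 fell in mut-16, or 20.6% and 12.6%, against 25.9% and 11.2% of all genes (37.1% in either direction). Library totals gave 137 higher and 151 lower, DESeq2 131 and 142, and a fit to these 2 groups alone 90 and 108, a minimum of 10 counts in every library 97 and 103, and no filter 127 and 154, so which direction held more calls at 20°C depended on the setting. Without replicate 3 of mut-16 at 20°C, 112 members were higher. The median of the members at 20°C lay 0.02 below that of all genes.

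F41G4.7 (X:16834896-16836404, minus strand), an uncharacterized gene, had the largest rise in mut-16 at 20°C among members with at least 5 RPM. It had 62, 65 and 65.7 RPM in mut-16 at 25°C and 10.8, 9.89 and 9.42 RPM in mut-16 at 20°C, against 0.487, 0.494 and 0.46 RPM in wild-type at 25°C and 0.475, 0.481 and 0.526 RPM in wild-type at 20°C. The mutant groups were separate from each other and from wild-type, whose 2 groups overlapped. Its log2 fold change was 6.84 ± 0.77 relative to wild-type at 25°C and 4.42 ± 0.56 at 20°C (edgeR adjusted p = 3.39e-15 and 1.99e-12). A stretch of 1212 of its 1310 transcript bases is 96.4% identical to ZC15.4, a pseudogene on chromosome V, so its reads are uncertain. ZC15.4 had between 10.6 and 18.9 RPM in mut-16 and at most 0.507 RPM in wild-type.

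AC8.10 (X:237496-239177) and AC8.11 (X:236067-236810) lie next to each other on the minus strand, and AC8.10 encodes a protein with a MULE transposase domain. AC8.10 had 40.7, 30.8 and 30.5 RPM in mut-16 at 25°C and 17.5, 16.4 and 13 RPM in mut-16 at 20°C, against 4.61, 4.71 and 3.85 RPM in wild-type at 25°C and 2.76, 2.64 and 2.06 RPM in wild-type at 20°C. Its 4 groups did not overlap, and it was higher in mut-16 by 2.74 ± 0.40 at 25°C and 2.75 ± 0.42 at 20°C on the log2 scale (edgeR adjusted p = 1.92e-09 and 5.3e-09). AC8.11 had 21.7, 17.6 and 17.2 RPM in mut-16 at 25°C, 9.86, 8.46 and 8.01 RPM in mut-16 at 20°C, 2.95, 2.46 and 2.36 RPM in wild-type at 25°C and 2, 1.88 and 1.07 RPM in wild-type at 20°C. Its log2 fold changes in mut-16 were 2.65 ± 0.41 at 25°C and 2.52 ± 0.41 at 20°C.

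**Figure D2:**
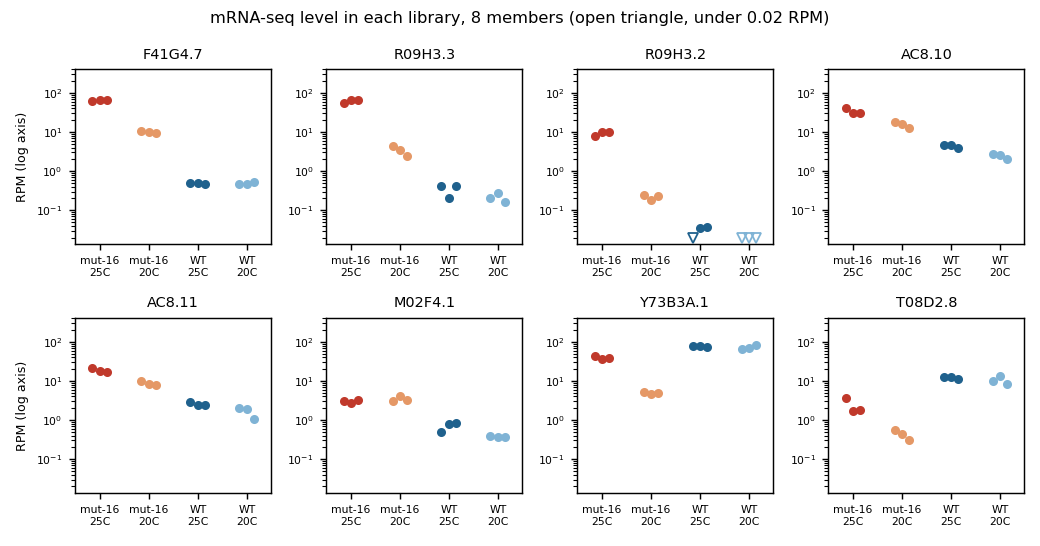
mRNA level of 8 members in each library in RPM on a log axis, with both mut-16 groups left of both wild-type groups and 25°C left of 20°C. F41G4.7, R09H3.3, R09H3.2, AC8.10, AC8.11 and M02F4.1 were higher in mut-16 than in wild-type, and Y73B3A.1 and T08D2.8 were lower in mut-16, most of all at 20°C.

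The 3 members that fell most in mut-16 at 20°C by the rule for naming lay together at the left end of the X. From Y73B3A.1 (X:42632-46933, minus strand) to Y73B3B.3, the last member before AC8.11, there are 11 members, a stretch chosen after its values were seen. Of the 10 tested in mRNA-seq, 8 fell in mut-16 at 20°C and none rose, with a median log2 fold change of -3.71, and 7 fell at 25°C, with a median of -1.38 (11.2% of all genes fell at 20°C and 32.6% at 25°C). A stretch of each of 6 of the 11 is nearly identical to another gene, so at least their reads are uncertain. The 6 are Y73B3A.1, Y73B3A.20, Y73B3A.11, T08D2.4, T08D2.6 and Y73B3B.1. T08D2.4 also lies within the span of T08D2.5 on the same strand, and the spans of Y73B3B.1 and Y73B3B.3 overlap on opposite strands. The reads of T08D2.5 and Y73B3B.3 can thus be uncertain too. Of 3 other coding genes tested there, all 3 fell at 20°C. Y73B3A.1, which encodes a protein with a JmjC domain, had 42.3, 37 and 39 RPM in mut-16 at 25°C and 5.14, 4.68 and 5.03 RPM in mut-16 at 20°C, against 78.9, 76.9 and 72.9 RPM in wild-type at 25°C and 66.5, 67.7 and 82.5 RPM in wild-type at 20°C. The wild-type groups overlapped, and both mutant groups were below them.

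Y73B3A.1 was 1.16 lower on the log2 scale in mut-16 at 25°C (-1.16 ± 0.20, edgeR adjusted p = 1.4e-07) and 3.78 lower at 20°C (-3.78 ± 0.47, adjusted p = 1.17e-12). A stretch of 970 of its 2239 transcript bases is 97.2% identical to Y51H4A.12 (set-26) on chromosome IV, so its reads are uncertain. Y51H4A.12 had 66.8, 26.2 and 28 RPM in mut-16 at 25°C and 64.6 to 82.1 RPM in mut-16 at 20°C. In wild-type it had 43.3 to 61.4 RPM at 25°C and 54 to 62.6 RPM at 20°C. With temperature in mut-16 it fell by a log2 fold change of -1.15 (edgeR adjusted p = 0.0116), where Y73B3A.1 rose.

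T08D2.8 (X:192834-197901, plus strand), with a TOG domain of the kind that binds tubulin, had 3.75, 1.7 and 1.79 RPM in mut-16 at 25°C and 0.554, 0.441 and 0.316 RPM in mut-16 at 20°C, against 12.6, 12.4 and 11.3 RPM in wild-type at 25°C and 9.69, 13 and 8.47 RPM in wild-type at 20°C. Its log2 fold change in mut-16 was -2.65 ± 0.48 at 25°C and -4.50 ± 0.75 at 20°C (edgeR adjusted p = 6.04e-07 and 8.19e-08). Y73B3A.4 (X:95614-104777, minus strand), with a RING-type domain, had 9.02, 8.03 and 8.94 RPM in mut-16 at 25°C and 2.28, 1.54 and 1.59 RPM in mut-16 at 20°C, against 27.3, 25.1 and 23.4 RPM in wild-type at 25°C and 26.2, 26.9 and 24.4 RPM in wild-type at 20°C. T08D2.6 (X:179786-182169, minus strand) had 4.61, 4.08 and 3.62 RPM in mut-16 at 25°C and 0.17, 0.699 and 0.229 RPM in mut-16 at 20°C, against 8.6, 8.21 and 9.61 RPM in wild-type at 25°C and 6.7, 8.93 and 5.56 RPM in wild-type at 20°C. For T08D2.6 a stretch of 158 bases is 98.7% identical to T12F5.5 on chromosome I. In all 3 genes the order was the same, with mut-16 at 20°C lowest, mut-16 at 25°C next and the wild-type groups overlapping above. The closest proteins are on other chromosomes, with 94.1% identity to that of M70.5 for Y73B3A.4 and 92.5% to that of F54A3.2 for T08D2.8.

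Small RNAs fell over the same stretch. Of its 10 members tested in small RNA-seq, all 10 fell in mut-16 at 20°C, with a median log2 fold change of -2.95, where 67.5% of all tested members and 46.8% of all genes fell, and at 25°C 8 fell and 1, Y73B3A.1, rose, with a median of -1.40. T08D2.8 had 27.2, 21 and 23.9 small RNA RPM in mut-16 at 25°C and 4.6, 4.4 and 4.83 RPM in mut-16 at 20°C, against 40.3, 33.3 and 33.7 RPM in wild-type at 25°C and 34.2, 45.1 and 42.5 RPM in wild-type at 20°C. The change with temperature in mut-16 exceeded that in wild-type by 2.50 ± 0.43 on the log2 scale (edgeR adjusted p = 2.61e-06).

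**Figure D3:**
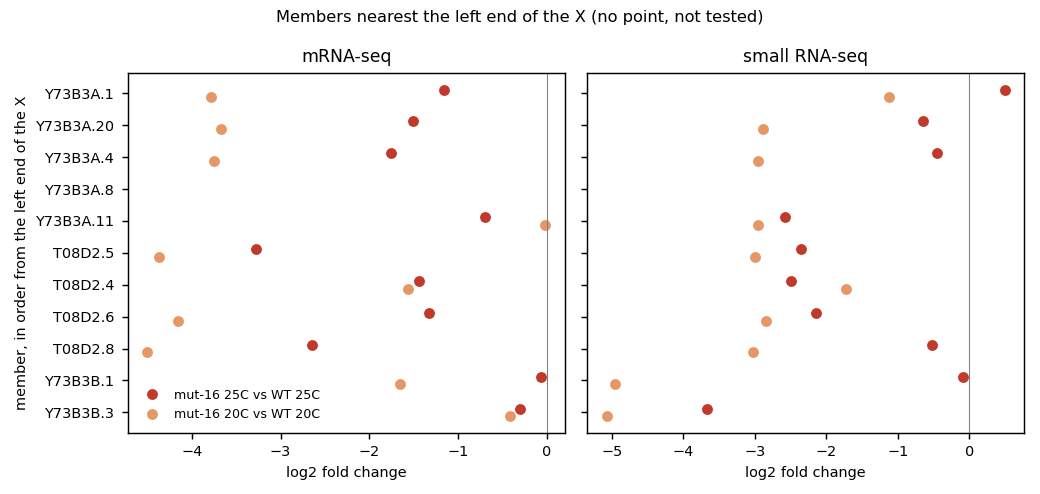
Log2 fold change of the 11 members nearest the left end of the X, in chromosome order from top to bottom, in mut-16 relative to wild-type, at 25°C (red) and 20°C (orange), in mRNA-seq (left) and small RNA-seq (right). Members with no point were not tested. Of the 10 tested members 8 fell at 20°C in mRNA-seq and all 10 fell in small RNA-seq.

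The difference between the temperature responses of the genotypes was tested by an interaction term. In 130 members the response was higher in mut-16 than in wild-type and in 37 it was lower (edgeR), or 15.4% and 4.39% of those tested, against 9.7% and 21.4% of all genes (31.1% in either direction). In unnamed autosomal genes 536 were higher and 884 lower. The median was 0.25 in members, 0.20 in X-linked named genes, -0.08 in unnamed autosomal genes and -0.10 in all genes, so the X-linked classes lay above all genes and the autosomal unnamed class near them. Scaling by library totals moved the median of all genes to 0.19 and that of unnamed autosomal genes to 0.22, and gave 292 members higher and 13 lower, and under both scalings the members lay 0.35 above all genes. With at least 10 counts in every library the medians were 0.42 in members, 0.14 in unnamed autosomal genes and 0.08 in all genes. Without replicate 3 of mut-16 at 20°C there were 215 members higher and 24 lower, without replicate 1 of wild-type at 25°C 78 were higher, without replicate 1 of wild-type at 20°C 77 were higher, and without replicate 2 of mut-16 at 25°C 23 were lower. Of the 843 tested members, 147 were higher in mut-16 at 25°C than in both mut-16 at 20°C and wild-type at 25°C while neither temperature in wild-type nor genotype at 20°C was called, and 19 were lower in the same way, or 17.4% and 2.25%. Of all genes tested 11.8% and 17.3% had these patterns, and of unnamed autosomal genes 13% and 12.6%. Those 2 comparisons share the libraries of mut-16 at 25°C.

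**Figure D4:**
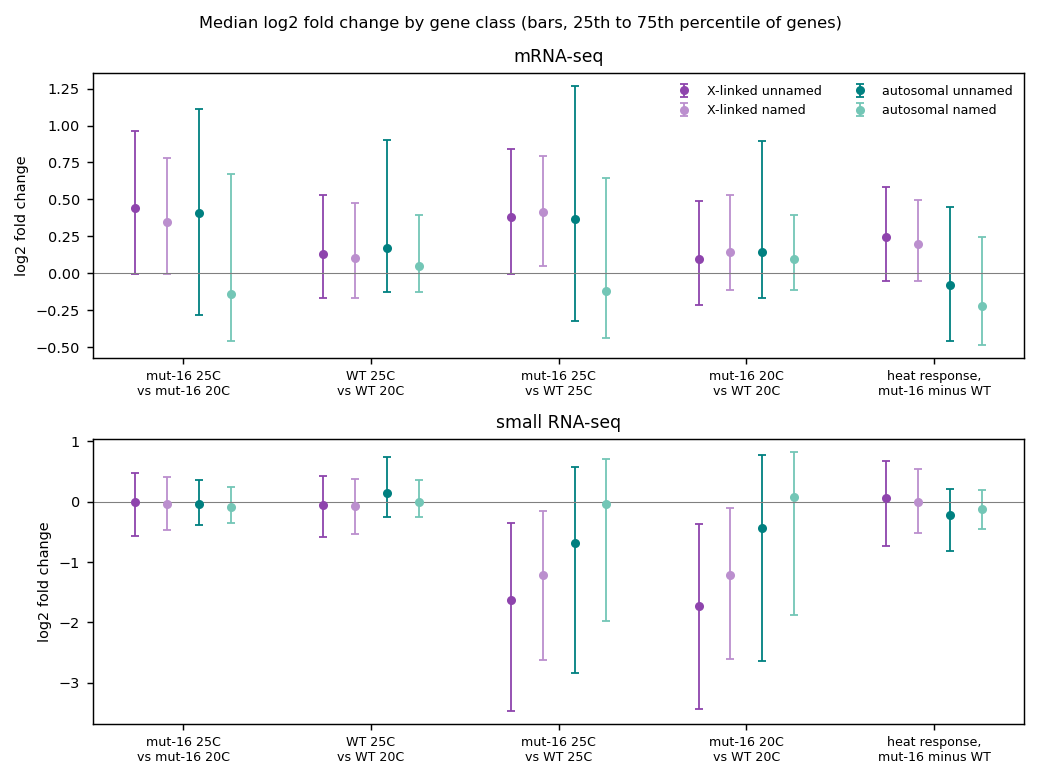
Median log2 fold change (points) and 25th to 75th percentile over genes (bars) for 4 classes of coding genes in 5 comparisons, in mRNA-seq (top) and small RNA-seq (bottom). The X-linked unnamed genes had medians of 0.44 and 0.25 in mRNA-seq for temperature in mut-16 and for the difference between temperature responses, and of -1.63 and -1.73 in small RNA-seq for mut-16 at 25°C and at 20°C.

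R193.2 (X:1132993-1148585, minus strand), with a von Willebrand factor A domain, was called in opposite directions with temperature. It had 89.2, 59.5 and 59.6 RPM in mut-16 at 25°C and 105, 92.6 and 91.6 RPM in mut-16 at 20°C, against 92.6, 67.4 and 71.6 RPM in wild-type at 25°C and 40.7, 50.6 and 39.8 RPM in wild-type at 20°C. It fell by 0.79 on the log2 scale in mut-16 and was 0.81 ± 0.24 higher at 25°C in wild-type, a difference of -1.59 ± 0.38 (edgeR adjusted p = 0.00112). Temperature separated its libraries in each genotype.

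The small RNA libraries showed a larger difference between genotypes. The summed small RNA level of the members ran between 4428 and 4771 RPM in mut-16 at 25°C and between 3993 and 4334 RPM in mut-16 at 20°C, against 24159 to 25208 RPM in wild-type at 25°C and 25877 to 26308 RPM in wild-type at 20°C. No mutant library was near a wild-type library. The 10 members with the most small RNAs held 43.4% of the sum in wild-type at 25°C and 36.5% in wild-type at 20°C. In unnamed autosomal genes the sums were 261730 to 278720, 224930 to 233020, 296290 to 303680 and 274960 to 281060 RPM in the same order of groups. The counts do not separate small RNAs by class or by strand relative to the gene.

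At 25°C small RNAs fell in mut-16 for 494 members and rose for 53 of the 758 tested (edgeR, 16025 genes in all), or 65.2% and 6.99%, against 47.1% and 31.3% of all genes (78.4% in either direction). At 20°C they fell for 512 and rose for 50, or 67.5% and 6.6%, against 46.8% and 33.6% of all genes (80.4% in either direction), and without replicate 3 of wild-type at 20°C they rose for 32. In unnamed autosomal genes 2507 fell and 1539 rose at 25°C, and 2445 fell and 1745 rose at 20°C. The median log2 fold change of the members was -1.63 at 25°C and -1.73 at 20°C, that of unnamed autosomal genes -0.68 and -0.44, and that of X-linked named genes -1.21 and -1.22. The members lay 1.05 and 1.27 below the median of all genes. The summed small RNA level of the 18 germline genes was 8627 to 9443 RPM over the mut-16 libraries and 5416 to 6470 RPM over the wild-type libraries, and its part in these values was not tested.

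The members with the most small RNAs in wild-type lost nearly all of them. F59C12.4, the gene of 150 bases printed above, had 8.59, 6.78 and 10.6 RPM in mut-16 at 25°C and 11.3, 19.9 and 10.2 RPM in mut-16 at 20°C, against 2347, 2383 and 2232 RPM in wild-type at 25°C and 1815, 1751 and 1633 RPM in wild-type at 20°C. Genotype separated its libraries completely, with a log2 fold change of -6.89 ± 1.03 at 20°C (edgeR adjusted p = 2.49e-10), and it fell at 25°C as well (adjusted p = 1.37e-10). Its mRNA fell as well, with 3.56, 3.62 and 2.95 RPM in mut-16 at 25°C and 3.59, 4.77 and 5.47 RPM in mut-16 at 20°C, against 8.95, 8.15 and 8.67 RPM in wild-type at 25°C and 10.3, 7.65 and 6.81 RPM in wild-type at 20°C. Both mutant groups were below both wild-type groups, by log2 fold changes of -1.57 ± 0.29 and -0.74 ± 0.21 (edgeR adjusted p = 1.29e-06 and 0.00247).

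F02C12.3, AC8.10, M02F4.1 and T22B2.2 were the other 4 of the 5 members with the most small RNAs in wild-type at 20°C, and their mRNA behaved otherwise. M02F4.1 (X:3027180-3029130, minus strand), an uncharacterized gene, had 5.11, 3.51 and 4.32 small RNA RPM in mut-16 at 25°C and 9.38, 12.8 and 10 RPM in mut-16 at 20°C, against 610, 591 and 533 RPM in wild-type at 25°C and 878, 965 and 925 RPM in wild-type at 20°C. Its mRNA was higher in mut-16 by 1.83 ± 0.34 at 25°C and 3.26 ± 0.52 at 20°C on the log2 scale (edgeR adjusted p = 1.47e-06 and 1.77e-08). T22B2.2, with 2.19 to 4.35 small RNA RPM in mut-16 and 527 to 1137 RPM in wild-type, likewise had more mRNA in mut-16, by 2.12 ± 0.50 at 25°C and 2.98 ± 0.64 at 20°C.

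F02C12.3 (X:13396973-13397782, plus strand), another uncharacterized gene, had 5.56 to 11.4 small RNA RPM in mut-16 and 1252 to 1952 RPM in wild-type. Its mRNA had 4.28, 3.21 and 4.12 RPM in mut-16 at 25°C and 0.861, 1.03 and 0.616 RPM in mut-16 at 20°C, against 0.415, 0.421 and 0.374 RPM in wild-type at 25°C and 0.751, 0.862 and 0.785 RPM in wild-type at 20°C. The libraries of mut-16 at 25°C stood above all others, and at 20°C the genotypes overlapped. It was higher in mut-16 at 25°C by 3.03 ± 0.49 on the log2 scale (edgeR adjusted p = 3.42e-08), and at 20°C the value was 0.13 ± 0.29 (adjusted p = 0.751).

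AC8.10 had 38.8, 27.8 and 30.9 small RNA RPM in mut-16 at 25°C and 11, 15.7 and 8.74 RPM in mut-16 at 20°C, against 1734, 1784 and 1720 RPM in wild-type at 25°C and 1182, 1231 and 1254 RPM in wild-type at 20°C. Genotype and temperature both separated its libraries. The 11 members annotated as transposases, a group formed after the annotation was read, summed to 38.2 to 49.4 small RNA RPM in mut-16 at 25°C and 24 to 35.1 RPM in mut-16 at 20°C, against 1839 to 1912 RPM in wild-type at 25°C and 1471 to 1506 RPM in wild-type at 20°C. AC8.10 held most of the sum in wild-type, with means of 1746 RPM at 25°C and 1222 RPM at 20°C, but in mut-16 at 20°C its mean was 11.8 RPM. Of the 9 tested, 7 fell and 1 rose in mut-16 at each temperature, where most tested members fell (65.2% at 25°C and 67.5% at 20°C).

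Large losses of small RNA were found both in members with abundant mRNA and in members with next to none. C44C1.1 (X:980776-983030, plus strand), a predicted G protein-coupled receptor, had 0, 0.665 and 0.572 small RNA RPM in mut-16 at 25°C and 0.338, 0.601 and 0.401 RPM in mut-16 at 20°C, against 126, 129 and 137 RPM in wild-type at 25°C and 324, 298 and 301 RPM in wild-type at 20°C. Its mRNA ranged between 11.6 and 41.2 RPM over all libraries and was 0.76 ± 0.16 higher in mut-16 at 25°C and 0.70 ± 0.16 higher at 20°C on the log2 scale. Y81B9A.1 had 102 to 166 small RNA RPM in wild-type and at most 1.49 RPM in mut-16, and at most 0.112 RPM of mRNA in any library. F46C3.7 had 0, 0.196 and 0.935 small RNA RPM in mut-16 at 25°C and 0, 0.369 and 0 RPM in mut-16 at 20°C, against 32, 29.9 and 40.9 RPM in wild-type at 25°C and 98, 91.4 and 74.7 RPM in wild-type at 20°C, but all 291 bases of its transcript match F29G9.1 on chromosome V at 99.7% identity, so its reads are uncertain. C44C10.5 had 1.42 to 3.08 small RNA RPM in mut-16 and 370 to 888 RPM in wild-type, and its reads are uncertain because it overlaps C44C10.10 on the same strand and shares 185 identical bases with it.

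In R09H3.3 and F41G4.7 the small RNAs fell in mut-16 but were higher at 25°C in both genotypes, together with the mRNA in mut-16. R09H3.3 had 110, 97 and 117 small RNA RPM in mut-16 at 25°C and 7.18, 9.56 and 3.89 RPM in mut-16 at 20°C, against 1446, 1441 and 1126 RPM in wild-type at 25°C and 567, 628 and 604 RPM in wild-type at 20°C. Its 4 groups did not overlap, and the log2 fold change with temperature was 4.02 ± 0.70 in mut-16 and 1.26 ± 0.31 in wild-type (edgeR adjusted p = 1.78e-06 and 0.000515). F41G4.7 had 173, 149 and 163 small RNA RPM in mut-16 at 25°C and 19.1, 22.1 and 17.7 RPM in mut-16 at 20°C, against 1307, 1221 and 818 RPM in wild-type at 25°C and 484, 569 and 552 RPM in wild-type at 20°C. Its groups did not overlap either, with log2 fold changes of -2.73 ± 0.49 in mut-16 at 25°C and -4.67 ± 0.74 at 20°C (edgeR adjusted p = 1.1e-07 and 2.64e-09).

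**Figure D5:**
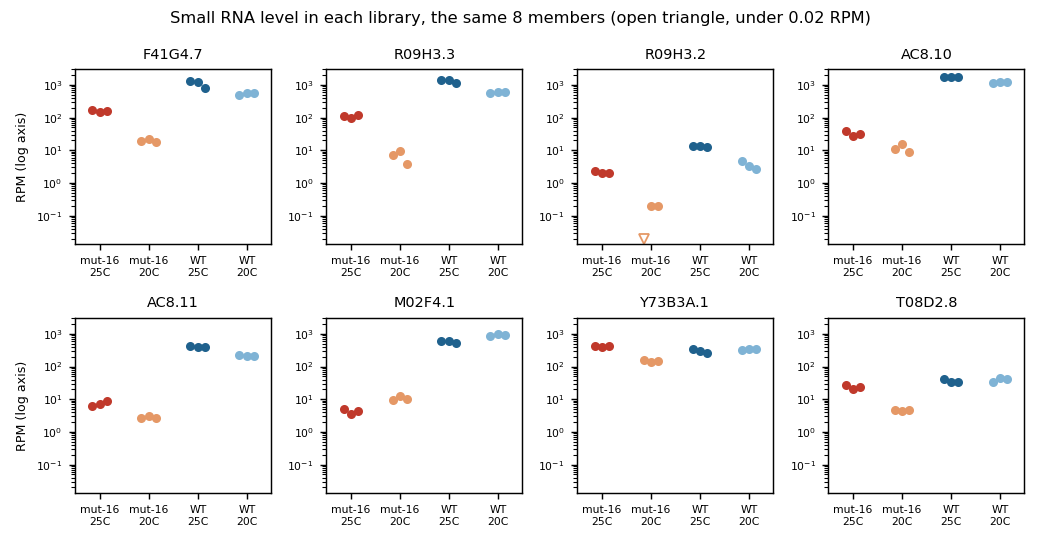
Small RNA level of the same 8 members in each library in RPM on a log axis, with both mut-16 groups left of both wild-type groups and 25°C left of 20°C. M02F4.1, AC8.10 and AC8.11 had far fewer small RNAs in both mut-16 groups than in wild-type, whereas Y73B3A.1 and T08D2.8 were lowest in mut-16 at 20°C.

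A smaller set of members gained small RNAs in mut-16. C18A11.3 (X:8061123-8065735, plus strand) had 40.6, 22 and 24.2 small RNA RPM in mut-16 at 25°C and 12.1, 9.93 and 7.94 RPM in mut-16 at 20°C, against 2.01, 1.27 and 0.42 RPM in wild-type at 25°C and 4.11, 16.8 and 11 RPM in wild-type at 20°C. At 25°C the genotypes were apart, by a log2 fold change of 4.32 ± 0.99 (edgeR adjusted p = 3.03e-05), and at 20°C they overlapped. T23C6.4, C04A11.1 and F54E4.3 gained small RNAs in mut-16 at 20°C, by log2 fold changes of 1.89 ± 0.40, 1.74 ± 0.45 and 1.71 ± 0.36. T23C6.4 had 2.28, 3.94 and 4.3 RPM in mut-16 at 25°C and 35.7, 54.4 and 41.1 RPM in mut-16 at 20°C, against 7.19, 5.63 and 5.46 RPM in wild-type at 25°C and 8.63, 16.1 and 12.6 RPM in wild-type at 20°C, so its 4 groups did not overlap and mut-16 at 20°C was highest. Y34B4A.10 and F36G3.1 were higher in mut-16 at 25°C by 2.08 ± 0.49 and 2.16 ± 0.48, and F36G3.1 overlaps T09B9.5 on the opposite strand.

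Temperature changed the small RNAs of fewer members than genotype did. In mut-16 66 members rose and 79 fell (8.71% and 10.4% of those tested, against 8.29% and 17.3% of all genes, 25.6% in either direction), and in wild-type 97 rose and 148 fell (12.8% and 19.5%, against 20.2% and 17% of all genes, 37.2% in either direction). Of unnamed autosomal genes 1347 rose and 779 fell in wild-type, with a median log2 fold change of 0.14, against -0.06 in members. For mut-16 a minimum of 10 counts in every library gave 71 members higher and 36 lower, and a fit to the mut-16 groups alone 87 and 60, so the direction with more calls depended on the setting.

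R07D5.2, a predicted G-protein coupled receptor, fell with temperature in both genotypes. It had 4.3, 4.16 and 7.02 small RNA RPM in mut-16 at 25°C and 30.6, 65.2 and 31.8 RPM in mut-16 at 20°C, against 9.55, 8.8 and 13 RPM in wild-type at 25°C and 20.6, 22.5 and 26 RPM in wild-type at 20°C. Temperature separated its libraries, with log2 fold changes of -2.95 ± 0.58 in mut-16 and -1.08 ± 0.35 in wild-type (edgeR adjusted p = 1.79e-05 and 0.00836). F53H4.6, which RefSeq calls a RAD54-like protein, had 3.29, 2.84 and 2.26 small RNA RPM in mut-16 at 25°C and 3.07, 3.67 and 3.57 RPM in mut-16 at 20°C, against 83.5, 86.1 and 94 RPM in wild-type at 25°C and 22.5, 21.7 and 23.8 RPM in wild-type at 20°C. It rose with temperature in wild-type, where its groups were separate, by 2.05 ± 0.29 on the log2 scale (edgeR adjusted p = 1.61e-09), and in mut-16 they overlapped. It overlaps F59F4.4 on the opposite strand. B0272.3, a predicted hydroxyacyl-CoA dehydrogenase, fell with temperature in wild-type by 2.63 on the log2 scale, with 3.72, 5.45 and 2.1 RPM in wild-type at 25°C and 24.7, 27.5 and 27 RPM in wild-type at 20°C.

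The interaction term for small RNAs was higher in 79 members and lower in 50, or 10.4% and 6.6%, against 5.7% and 12.6% of all genes (18.3% in either direction). The count of lower calls was 31 without replicate 1 or replicate 2 of wild-type at 25°C and 30 to 32 without any 1 of the wild-type libraries at 20°C. F54G2.1, which RefSeq calls BAI1-associated protein 3, had 3.67, 4.16 and 6.11 small RNA RPM in mut-16 at 25°C and 23.6, 48.9 and 23.3 RPM in mut-16 at 20°C, against 39.2, 42 and 43.5 RPM in wild-type at 25°C and 29.7, 43 and 37.3 RPM in wild-type at 20°C. Its libraries in mut-16 at 25°C were below all others, and the difference between responses was -2.96 ± 0.66 (edgeR adjusted p = 0.000366).

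The 2 assays were set side by side for the 588 members tested in both. In mut-16 at 25°C, 164 members had more mRNA and fewer small RNAs, which is 66.1% of the 248 with more mRNA and 42.5% of the 386 with fewer small RNAs, and 51 had less of both. Those shares were near the ones over all 588, of which 65.6% had fewer small RNAs and 42.2% more mRNA. At 20°C, 80 had more mRNA and fewer small RNAs, 71.4% of the 112 and 20.5% of the 391, beside 66.5% and 19% over all 588, and 64 had less of both. Of the 12421 genes tested in both assays, 20.9% had more mRNA and fewer small RNAs at 25°C and 11.6% at 20°C, beside 27.9% and 13.6% of the members. Among members with fewer small RNAs in mut-16 at 20°C, the median mRNA log2 fold change was 0.02 at 20°C and 0.28 at 25°C. It was about the same in the 154 with no call (0.04 and 0.30) and in the 43 with more small RNAs (-0.04 and 0.33). Among the 255 members tested in mRNA-seq but with too few small RNA reads to be tested, it was 0.24 at 20°C and 0.64 at 25°C. Of these, 155 rose and 6 fell at 25°C, where 41.1% of all genes rose and 32.6% fell. The same class was not counted among autosomal genes. Members read mainly in mut-16 at 25°C, such as R09H3.2, can pass the mRNA-seq filter through that group alone. F35B3.4 (dbd-20 in RefSeq) was among those with more mRNA and fewer small RNAs, with 1.62, 2.36 and 2.13 mRNA RPM in mut-16 at 25°C and 0.909, 1.31 and 1.35 RPM in mut-16 at 20°C, against 0.0923, 0.0351 and 0.15 RPM in wild-type at 25°C and 0, 0 and 0.0826 RPM in wild-type at 20°C. The genotypes did not overlap at either temperature, and at 20°C its mRNA was at least 8.18-fold higher in mut-16.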

How the data were processed

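The authors trimmed reads with Cutadapt, aligned them to the genome with HISAT2 and quantified them with Salmon against the WS258 transcriptome; versions and the strand setting are not given in the sources used here. Small RNAs were selected at 18 to 30 nt. The deposited values are Salmon estimated counts per gene, not normalized, with 46970 entries per file; the 1060 names with more than 1 entry were summed and the counts rounded. No value of the authors' own comparisons was used. Members and lists were chosen with earlier results of these data known.

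All 12 libraries of an assay were fitted together in edgeR 4.0.16 (R 4.3.3; TMM scaling, filterByExpr, robust glmQLFit, glmQLFTest, 1 coefficient per group), with Benjamini-Hochberg adjustment over the 14623 (mRNA) or 16025 (small RNA) genes tested; members were counted afterwards. Alternatives were DESeq2 1.42.0, library totals, no filter or at least 10 counts in every library, a replicate block, only the groups compared, a mark in the mRNA library titles as a covariate, and leaving out each library. The mark, RE, is not explained and is missing only from replicate 3 of mut-16 at 20°C and replicate 3 of wild-type at 20°C. With it as a covariate the mRNA interaction was higher in 151 members and lower in 41. The fit was tested on simulated data. Named members are, per comparison and direction, the 3 with the largest change past the threshold, with at least 5 RPM in mRNA-seq or 10 RPM in small RNA-seq and no overlap between libraries (not asked of the interaction), the 5 most abundant in wild-type at 20°C per assay, and the 4 with the largest mRNA rise among those with fewer small RNAs and more mRNA in mut-16; a few others are named as chosen after their values were seen. Product groups were read from RefSeq descriptions (WBcel235), which matched 1322 members. Transcripts were compared with BLAST 2.17.0, and an alignment of at least 75 bases with 95% identity over its whole length, found for 64 members, marks uncertain reads. Identical stretches inside an alignment under 95%, as in F23A7.4 and F23A7.8, are missed. The 64 are thus a minimum, and members without such a match can still share reads. Exons of 52 members overlap another gene on the same strand and those of 226 on the opposite strand; without a stated strand setting their reads cannot be told apart. The ± after a log2 fold change was worked out from that change and its edgeR p-value through a normal quantile. It restates the p-value and is no separate estimate of the spread. The SDs and p-values rest on the spread between these libraries.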

Additional observations from a re-analysis of the deposited data

Results flagged for a closer look

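The 12 results here were picked by the rule for naming, 3 per direction in each assay. In each the temperature response differed between mut-16 and wild-type by the interaction term of the edgeR fit. Their number was set by that rule, and other named members passed as well, such as T08D2.8 and Y73B3A.4 in both assays. The values are log2 differences, the response of mut-16 minus that of wild-type. In mRNA-seq it was 3.20 for R09H3.3, 2.83 for T08D2.6 and 2.62 for Y73B3A.1, where mut-16 responded more, and -1.54 for F47E1.4, -1.59 for R193.2 and -1.25 for H11L12.1. In small RNA-seq it was 4.31 for C18A11.3, 4.00 for H11L12.1 and 2.89 for C04E7.3, and -3.75 for C14E2.6, -3.68 for F17H10.2 and -2.96 for F54G2.1. H11L12.1 thus differed in opposite directions in the 2 assays. Its reads are uncertain, as are those of Y73B3A.1 and T08D2.6, because of the nearly identical stretches given above. T16G12.3, which matches H11L12.1, had 161 to 178 small RNA RPM in mut-16 and 48.5 to 86.2 RPM in wild-type. The part of shared reads in this result was not tested. C14E2.6, a predicted lipase, had no mRNA read in any library, and it had 0.126, 0.656 and 0.452 small RNA RPM in mut-16 at 25°C and 4.35, 5.16 and 3.57 RPM in mut-16 at 20°C, against 10.1, 10.4 and 10.7 RPM in wild-type at 25°C and 7.93, 8.68 and 7.31 RPM in wild-type at 20°C. C04E7.3 had 16.8, 19.4 and 21.6 small RNA RPM in wild-type at 25°C and 97.3, 81.3 and 87.8 RPM in wild-type at 20°C, and at most 1.17 RPM in mut-16. C04E7.3 and F17H10.2 each overlap a gene on the opposite strand, so their reads are uncertain. The result for F17H10.2 passed the threshold at an adjusted p of 0.0335 and did not pass it without any 1 of the mut-16 libraries (adjusted p between 0.0524 and 0.0949), and the wild-type libraries at 25°C spread between 18.8 and 93.5 RPM.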

How the results depend on the processing

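All values here are for the members, and no named result changed direction under any alternative run. With library totals in place of TMM, 41 members were lower with temperature in mut-16 and 57 lower in mut-16 at 25°C, and the interaction was higher in 292 and lower in 13. A minimum of 10 counts in every library left 622 members to test in mRNA-seq. It gave 49 lower with temperature in mut-16, 55 lower in mut-16 at 25°C, 97 higher at 20°C and an interaction higher in 212 and lower in 11. In small RNA-seq it gave 36 lower with temperature in mut-16, 60 higher and 63 lower with temperature in wild-type, 21 higher and 179 lower in mut-16 at 25°C, 10 higher and 193 lower at 20°C, and an interaction lower in 30. Only 266 members were tested there with that filter. The lower calls in mut-16 were thus 67.3% of them at 25°C and 72.6% at 20°C, beside 65.2% and 67.5% in the main fit. Of all genes tested with that filter, 38% were lower at 25°C. Fewer small RNAs with more mRNA then held for 54 members at 25°C and 13 at 20°C. That filter removes genes with a zero in any library, and so many of those that lost their small RNAs. The mRNA interaction was lower in 24 members with DESeq2 and in 24 without a filter. Fitting the compared groups alone gave 90 higher in mRNA in mut-16 at 20°C, and 44 with fewer small RNAs and more mRNA there.

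Leaving out 1 library at a time, the mRNA interaction was higher in 77 to 215 and lower in 23 to 41 members, 112 to 184 were higher in mRNA in mut-16 at 20°C, and in small RNA-seq 32 to 51 were higher at 20°C and the interaction was lower in 30 to 52. The mRNA rise of R07B1.8 in mut-16 at 20°C lost significance with DESeq2 and without any 1 of 5 libraries, replicates 1 and 2 of mut-16 at 20°C and all 3 of wild-type at 20°C. Replicate numbers did not pair the samples, and with a replicate block 437 members rose and 99 fell in mRNA with temperature in mut-16, 171 rose and 102 fell in mut-16 at 20°C, and 489 fell in small RNA at 25°C, with no count moved by over 1.5 times.

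With TMM-scaled library sizes the summed mRNA was 16481 RPM in mut-16 at 25°C and 15272 RPM in mut-16 at 20°C, the median 1.28 and 0.774 RPM per kb, and 701 and 625 members reached 1 RPM. Summed small RNAs were 4880 RPM in mut-16 at 25°C (median 0.377 RPM per kb) and 24557 RPM in wild-type at 20°C (median 1.07 RPM per kb, 707 members at 1 RPM). Per kb, scaled to 1000000, the mRNA sums were 22430, 18038, 19772 and 21022 in mut-16 at 25°C and 20°C and wild-type at 25°C and 20°C, and the small RNA sums 6954, 6492, 44908 and 44578. The causes of these changes were not tested.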
